A study of Mus musculus with 8 samples.

Results

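The lipid droplet coat and CIDE genes comprise 10 genes: the perilipins Plin2, Plin3, Plin4 and Plin5, the CIDE genes Cidea, Cideb and Cidec, the lipase inhibitor Hilpda, and the fat storage-inducing genes Fitm1 and Fitm2. They were chosen by name, and each name matched exactly 1 of 30266 rows of the deposited gene table. RNA was sequenced from liver tissue of male mice labelled Mdr2-/-, 8 weeks old, taken 4 h after recombinant FGF21 (rFGF21, 1.0 mg/kg, 4 libraries) or after the vehicle PBS (4 libraries). Both groups carry the same genotype, which removes a phospholipid pump of the bile canaliculus and leads to cholestatic injury, so every value below comes from an Mdr2-/- liver, and no liver of another genotype was analysed here. The labels do not say outright that each sample came from its own animal, so the spread that p-values rest on here may be partly technical.

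A lipid droplet is a store of triglyceride and sterol ester wrapped in a phospholipid monolayer. It buds from the endoplasmic reticulum, where FIT proteins (Fitm1, Fitm2) act on the emerging droplet, and is coated by perilipins, which control how far lipases reach the stored fat. CIDE proteins gather where 2 droplets touch and move lipid from the smaller to the larger one, and Cideb also takes part in loading VLDL with lipid. In hepatocytes Plin2 is the best known coat and marks fat storage, while Plin5 is known from tissues with high fat oxidation, where it ties droplets to mitochondria.

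Library totals lay between 69308143 and 73313449 reads in rFGF21 libraries and between 62756328 and 71871913 reads in PBS libraries. Albumin stood between 45622 and 58034 CPM in rFGF21 libraries and between 42573 and 63437 CPM in PBS libraries (CPM, counts scaled to a common library size by TMM), while the photoreceptor genes Crx and Rcvrn, looked up because the extraction protocol names another tissue, had 0 reads in all 8 libraries. Abcb4, the gene formerly called Mdr2, was read at 372 to 441 CPM in rFGF21 and 337 to 424 CPM in PBS libraries. The sources used here do not say which part of it is disrupted, so its level checks no genotype. For most of these genes the PBS libraries spread more than the rFGF21 libraries. The SD as a share of the mean went the other way for Cidea (103% in rFGF21, 78.0% in PBS), Fitm1 (36.6% and 34.3%) and Cideb (5.43% and 5.12%). PBS library 4 was the lowest of its group in 6 of the 10 (median log2 deviation from the group mean -0.42). PBS libraries 2 and 5 were the highest in 4 each (0.27 and 0.36), while the rFGF21 libraries had medians of -0.06 to 0.06. PBS library 2 held more adipocyte transcripts than the others, with 1.07 CPM of Plin1, the perilipin of fat cells, and 0.881 CPM of Adipoq, the adiponectin gene; Plin1 had 0 reads in the other 7 libraries. Libraries are called by the number in their column name.

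After rFGF21, 2 of the 10 genes fell and none rose. Plin4 fell 5.15-fold and its neighbour Plin5 fell 1.81-fold (adjusted p = 0.0277 and 0.0442, from the quasi-likelihood test of edgeR with the Benjamini-Hochberg method). Over all 18315 genes tested the call of an adjusted p under 0.05 was made for 1.67% as lower, 1.15% as higher and 2.82% in either direction. These were 210 higher and 306 lower genes, and with scaling by library size alone they were 257 higher and 178 lower, with Plin4 the 1 of the 10 called. At an unadjusted p under 0.05, 5 of the 10 were lower (Plin4, Plin5, Cideb, Cidec and Fitm2) against 9.86% of all genes, and 1 was higher (Plin3) against 8.92%. The median log2 fold change of the 10 was -0.47, that of all genes tested 0.00338. All 10 passed the filter on low counts. DESeq2 called 4 of them lower (Plin4, Plin5, Cideb and Fitm2) against 4.97% of the genes it tested, and none higher, while limma-voom called none against 1.58% of all genes as lower.

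**Figure D1:**
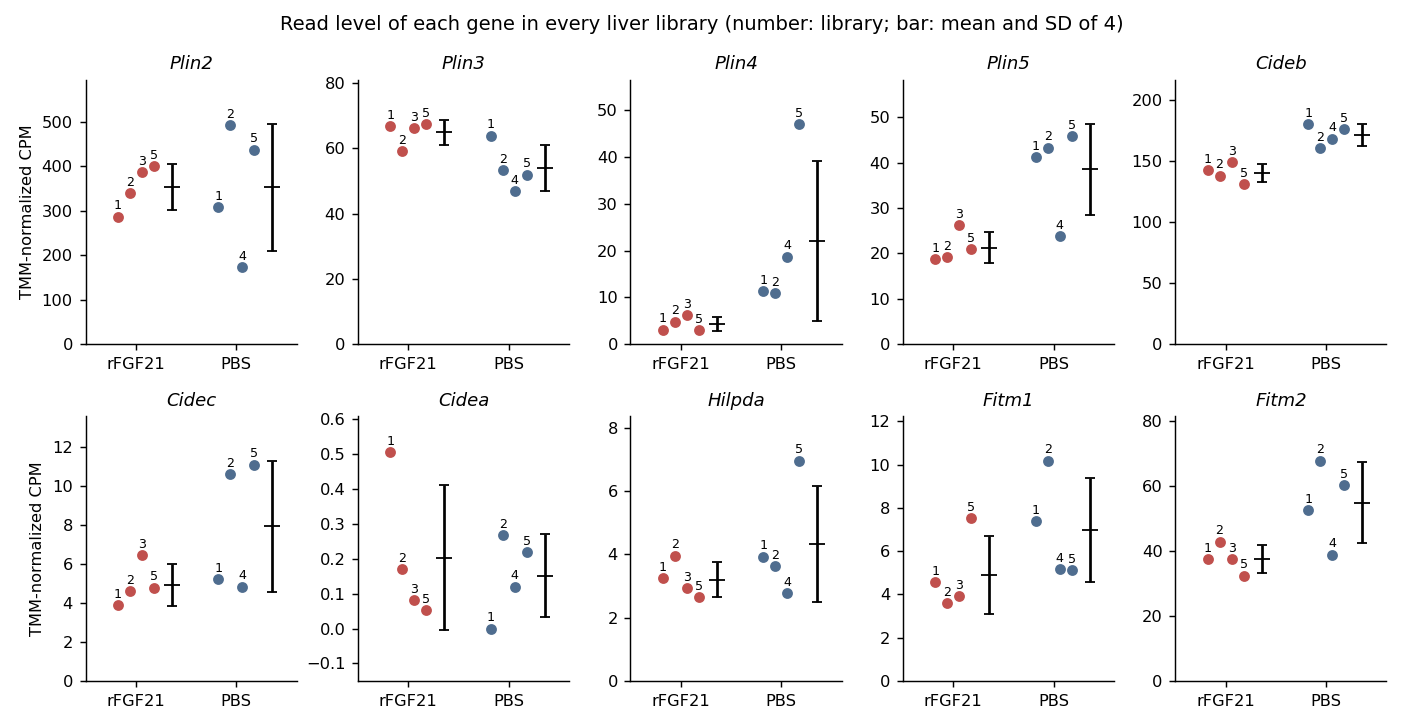
TMM-normalized CPM (vertical axes, each gene on its own scale) of the 10 genes in 4 rFGF21 libraries (left, red) and 4 PBS libraries (right, blue), with the library number at each point and the mean and SD of the group as a bar. For Plin4 the rFGF21 libraries reach 6.22 CPM and the PBS libraries start at 10.98 CPM; for Plin2 the groups overlap.

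Plin4 (ENSMUSG00000002831, GRCm38 chromosome 17, 56100591 to 56109803, minus strand) encodes a perilipin with a long run of repeats that lie flat on newly formed droplets, and is known chiefly from fat and muscle. It was read at 3.12, 4.85, 6.22 and 2.95 CPM in rFGF21 libraries 1, 2, 3 and 5, against 11.4, 10.98, 18.7 and 47.1 CPM in PBS libraries 1, 2, 4 and 5. Every rFGF21 library lay below every PBS library, and PBS library 5 lay far above the other 3. Non-overlap was seen in 6.39% of all genes tested in the lower direction and in 5.9% in the higher one. The means were 4.28 ± 1.55 CPM in rFGF21 and 22.1 ± 17.1 CPM in PBS livers (SD, n = 4 each), a log2 fold change of -2.36 ± 0.46 (SE; edgeR 95% interval -3.39 to -1.34). Without PBS library 5, the highest, the log2 fold change was -1.67 and the call was kept (edgeR adjusted p = 0.0337). The call was lost without rFGF21 library 1, 2 or 5 (edgeR adjusted p = 0.0988, 0.0627 and 0.0842), at log2 fold changes of -2.24, -2.43 and -2.22. Plin4 shares 17 bases with the end of Hdgfl2 on the other strand, which was read at 50.6 ± 2.4 CPM in rFGF21 and 51.2 ± 4.6 CPM in PBS livers (SD, n = 4 each), and the kit used does not mark strand. PBS library 5, where Plin4 was highest, was also highest in Elovl3, at 30.94 CPM against 2.85 to 12.4 CPM in the other 7 libraries. Elovl3 encodes a fatty acid elongase and stood on the list of brown adipocyte markers. It was read in every library, so its level alone cannot show brown fat RNA. The 3 brown adipocyte markers in the table were Elovl3, Zic1 and Cidea. They summed to 3.02 to 7.60 CPM in rFGF21 and 5.58 to 31.2 CPM in PBS libraries, and neither of the 2 tested was called. Nearly all of the sum in PBS library 5 was Elovl3, and Zic1 was at 0 CPM there. Cidea was at 0.218 CPM in PBS library 5. That was below rFGF21 library 1 (0.506 CPM) and PBS library 2 (0.267 CPM) and above the rest. Of 7 white adipocyte markers, 4 had reads in PBS library 5 (Lipe at 14.5 CPM, Adrb3 at 4.09 CPM, Cfd and Slc7a10 at under 0.1 CPM), while Plin1, Adipoq and Lep had 0. The part of adipocyte RNA in the level of Plin4 was not tested.

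Plin5 (ENSMUSG00000011305, chromosome 17, 56111601 to 56117596, minus strand) lies 1797 bases from Plin4. It was read at 18.7, 19.1, 26.3 and 20.9 CPM in rFGF21 libraries 1, 2, 3 and 5, against 41.2, 43.3, 23.8 and 45.9 CPM in PBS libraries 1, 2, 4 and 5. The groups overlapped through PBS library 4, which lay below rFGF21 library 3, while the other 3 PBS libraries lay above every rFGF21 library. The means were 21.3 ± 3.5 CPM in rFGF21 and 38.5 ± 10.005 CPM in PBS livers (SD, n = 4 each), a log2 fold change of -0.86 ± 0.19 (SE; edgeR 95% interval -1.28 to -0.43). Without PBS library 4 the log2 fold change was -1.03 (edgeR adjusted p = 0.00901). Without any 1 of the other 7 libraries the call was lost, at log2 fold changes between -0.98 and -0.75 (edgeR adjusted p 0.0517 to 0.130). The other genes beside this pair gave no call: Lrg1, a secreted acute phase protein on the far side of Plin5, had a log2 fold change of 0.15 ± 0.14 (edgeR adjusted p = 0.626), and Hdgfl2 one of -0.02 ± 0.09 (edgeR adjusted p = 0.938).

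The stretches of 250 bases before the RefSeq start sites of Plin4 and Plin5 are given because these were the genes called, and that of Plin2 as the abundant perilipin that was not (GRCm38.p6, 5′ to 3′ on the strand of the gene, minus in each case). They span chr17:56109783-56110032 for Plin4, chr17:56117549-56117798 for the upstream of 2 Plin5 starts and chr4:86670060-86670309 for Plin2. The bases just after this Plin5 start were not found unbroken in a GENCODE M21 transcript, while those after the other Plin5 start were. The last bases of the Plin4 and Plin5 stretches lie within the gene coordinates given above. Capitals mark the nuclear receptor half-site AGGTCA or its reverse complement.
Plin4: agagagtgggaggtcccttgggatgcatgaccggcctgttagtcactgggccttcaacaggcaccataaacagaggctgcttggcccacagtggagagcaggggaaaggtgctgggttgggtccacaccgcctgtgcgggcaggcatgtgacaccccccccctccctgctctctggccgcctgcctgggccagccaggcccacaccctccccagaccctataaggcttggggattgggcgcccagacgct
Plin5: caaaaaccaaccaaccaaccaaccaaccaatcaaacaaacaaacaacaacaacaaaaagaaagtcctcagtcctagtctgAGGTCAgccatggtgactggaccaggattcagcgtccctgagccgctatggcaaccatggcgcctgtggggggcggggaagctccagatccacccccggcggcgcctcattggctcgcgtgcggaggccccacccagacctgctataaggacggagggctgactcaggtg
Plin2: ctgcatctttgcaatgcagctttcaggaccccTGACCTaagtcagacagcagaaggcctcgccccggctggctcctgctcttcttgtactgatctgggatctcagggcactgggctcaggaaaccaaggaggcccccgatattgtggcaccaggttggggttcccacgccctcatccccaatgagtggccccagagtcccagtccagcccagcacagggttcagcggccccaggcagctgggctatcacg
RefSeq windows of 250 bases before and 50 after a start, 12 windows of 9 of the genes, were searched on both strands. The paired half-site AGGTCANAGGTCA, the form known to bind PPAR with RXR, was in none of the 12 and in 0.0396% of all 32851 windows. The single half-site, chosen after that search, was in the Plin2 window and both Plin5 windows, and in 16.3% of all windows. The E box CACGTG was in the Plin2 window, across the start itself and so not whole in the printed stretch, and in 7.15% of all windows. The hypoxia core ACGTG, which the E box contains, was in the windows of Plin2 and Hilpda and in 19.6% of all windows. The FOXO core GTAAACA (3.65% of all windows) and the glucocorticoid receptor palindrome, AGAACA and TGTTCT set 3 bases apart (0.00913%), were in none of the 12. The Plin4 window held none of these motifs. A match is a description of letters and not of binding.

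Plin2 (ENSMUSG00000028494, chromosome 4, 86648386 to 86670060) had nearly the same mean in both groups and a wide spread. It was read at 287, 340, 386 and 401 CPM in rFGF21 libraries 1, 2, 3 and 5, against 309, 493, 174 and 438 CPM in PBS libraries 1, 2, 4 and 5. The PBS libraries reached both below and above all rFGF21 libraries. The means were 354 ± 51.3 CPM in rFGF21 and 353 ± 143 CPM in PBS livers (SD, n = 4 each). The 95% interval of the log2 fold change ran from -0.59 to 0.59 (edgeR adjusted p = 0.999), so it held changes of up to about 1.5-fold either way. At this spread a call at an adjusted p under 0.05 would take a larger change than that.

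Plin3 (ENSMUSG00000024197, chromosome 17, 56277476 to 56292873), a cytosolic perilipin that moves onto young droplets, was the 1 perilipin with a higher mean after rFGF21 beyond an unadjusted p of 0.05. It was read at 66.9, 59.1, 66.1 and 67.5 CPM in rFGF21 libraries 1, 2, 3 and 5, against 63.8, 53.3, 46.9 and 51.9 CPM in PBS libraries 1, 2, 4 and 5. The groups overlapped in 1 library of each, rFGF21 library 2 and PBS library 1. Its log2 fold change of 0.27 ± 0.10 (SE) was not called (edgeR adjusted p = 0.193). It lies 159879 bases from Plin5 on the same strand.

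Because scaling cancels in a ratio of 2 genes within a library, the perilipins were also compared as log2 ratios of counts, in 6 pairs chosen after their values were seen. The pairs share genes and reuse the same 8 libraries, so they are independent neither of each other nor of the calls above. The Plin4 to Plin2 ratio was -6.43 ± 0.50 in rFGF21 and -4.17 ± 1.14 in PBS livers, a difference of -2.26 (SD, n = 4 each; exact two-sided permutation test p = 0.0286, the smallest that 4 against 4 allows, and 0.0429 adjusted over the 6 pairs). The Plin5 to Plin2 ratio was -4.06 ± 0.18 in rFGF21 and -3.13 ± 0.30 in PBS livers, a difference of -0.92 with the same exact p, and here PBS library 4 no longer overlapped the rFGF21 libraries. Plin4 and Plin5 were also lower relative to Plin3, with differences of -2.43 and -1.10 and no overlap (exact permutation p = 0.0286 each). The Plin3 to Plin2 ratio differed by 0.18 (exact permutation p = 0.571). The Plin5 to Plin4 ratio differed by 1.33 and missed the threshold (exact permutation p = 0.0571), so a larger fall of Plin4 than of Plin5 was not shown.

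**Figure D2:**
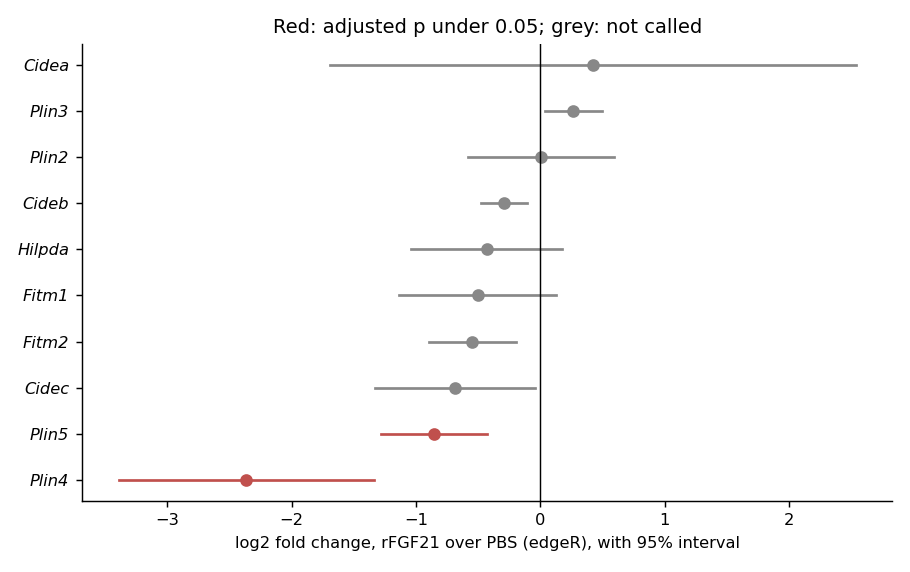
Log2 fold change of rFGF21 over PBS from edgeR (horizontal axis) with its 95% interval for each of the 10 genes, 4 libraries a group, red where the adjusted p was under 0.05. Plin4 at -2.36 and Plin5 at -0.86 are the 2 called, and Cidea has the widest interval, from -1.69 to 2.53.

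Among the CIDE genes none was called. Cideb (ENSMUSG00000022219, chromosome 14, 55754050 to 55758458), the CIDE gene of hepatocytes, was read at 142, 138, 149 and 131 CPM in rFGF21 libraries 1, 2, 3 and 5, against 181, 161, 169 and 176 CPM in PBS libraries 1, 2, 4 and 5. Every rFGF21 library lay below every PBS library. The means were 140 ± 7.61 CPM in rFGF21 and 172 ± 8.79 CPM in PBS livers (SD, n = 4 each), a log2 fold change of -0.29 ± 0.08 (SE, edgeR adjusted p = 0.0999). DESeq2 called it (adjusted p = 0.0118), at the same fold change. Its gene shares 1451 bases with Nop9 on the other strand, a ribosome assembly gene read at 46.4 ± 3.3 CPM in rFGF21 and 48.3 ± 4.2 CPM in PBS livers (SD, n = 4 each), and reads from the shared stretch cannot be told apart.

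Cidec (ENSMUSG00000030278, chromosome 6, 113424634 to 113435760), the fat-specific CIDE gene that is induced in fatty liver and enlarges droplets, was read at 3.88, 4.61, 6.46 and 4.79 CPM in rFGF21 libraries 1, 2, 3 and 5, against 5.24, 10.6, 4.84 and 11.1 CPM in PBS libraries 1, 2, 4 and 5. PBS libraries 2 and 5 lay above the rest, and PBS libraries 1 and 4 lay within the rFGF21 range. Its log2 fold change of -0.69 ± 0.29 (SE) was not called (edgeR adjusted p = 0.232). Of 7 adipocyte markers in the table, Adrb3 was the 1 called (lower, log2 fold change -1.38, edgeR adjusted p = 0.0240), 1 more was tested and not called, and the other 5 were too low to test. Their summed level ran from 16.5 to 20.2 CPM in rFGF21 and from 18.8 to 30.9 CPM in PBS libraries, most of it from Lipe, a lipase that liver also expresses. The part of adipocyte RNA in the level of Cidec was not tested.

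Cidea (ENSMUSG00000024526, chromosome 18, 67343604 to 67367785), the CIDE gene of brown fat, was near the limit of detection. It had 38, 12, 6 and 4 reads in rFGF21 libraries 1, 2, 3 and 5, against 0, 17, 7 and 15 reads in PBS libraries 1, 2, 4 and 5. The 0 allows up to 3 reads, counting error only. rFGF21 library 1 held most of the rFGF21 reads, and without it the log2 fold change turned from 0.42 ± 0.96 (SE) to -0.57, neither called (edgeR adjusted p = 0.862 and 0.845).

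Hilpda (ENSMUSG00000043421, chromosome 6, 29272488 to 29275446) encodes a small droplet protein that is induced by hypoxia and inhibits adipose triglyceride lipase. It was read at 3.26, 3.97, 2.94 and 2.66 CPM in rFGF21 libraries 1, 2, 3 and 5, against 3.93, 3.63, 2.77 and 6.97 CPM in PBS libraries 1, 2, 4 and 5. The groups overlapped except for PBS library 5, which stood above all others. The log2 fold change was -0.43 ± 0.27 (SE, edgeR adjusted p = 0.435), and -0.10 without PBS library 5.

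Fitm2 (ENSMUSG00000048486, chromosome 2, 163466379 to 163472629), the FIT gene of most tissues, was read at 37.4, 42.9, 37.6 and 32.4 CPM in rFGF21 libraries 1, 2, 3 and 5, against 52.5, 67.9, 38.9 and 60.3 CPM in PBS libraries 1, 2, 4 and 5. PBS libraries 1, 2 and 5 lay above all rFGF21 libraries and PBS library 4 lay among them. Its log2 fold change of -0.55 ± 0.16 (SE) was not called (edgeR adjusted p = 0.0975), and was called at -0.68 without PBS library 4 (edgeR adjusted p = 0.0210) and by DESeq2 on all 8 libraries (adjusted p = 0.0212).

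Fitm1 (ENSMUSG00000022215, chromosome 14, 55575617 to 55576954), the FIT gene known from skeletal muscle and heart, was read at 4.55, 3.61, 3.93 and 7.54 CPM in rFGF21 libraries 1, 2, 3 and 5, against 7.38, 10.2, 5.17 and 5.14 CPM in PBS libraries 1, 2, 4 and 5. rFGF21 library 5 was the high one of its group and PBS library 2 of the other, and the groups overlapped. The log2 fold change of -0.51 ± 0.29 (SE) was not called (edgeR adjusted p = 0.375). Skeletal and heart muscle markers summed to 0.734 to 1.53 CPM in rFGF21 and 1.05 to 2.22 CPM in PBS libraries, with none of the 3 tested among 7 called. Fitm1 and Fitm2 overlap an antisense gene each, by 375 and 673 bases, and both antisense genes were read at under 1 CPM on average in either group. In bulk liver RNA, fewer cells that carry a transcript and less of it per cell cannot be told apart.

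Compared per length, the 10 genes spanned nearly 3 orders of magnitude. RPKM, the counts divided by library size and by the merged exon length in GENCODE M21, were computed from the counts. Cideb stood at 96.8 ± 3.6 RPKM in rFGF21 and 112 ± 7.2 RPKM in PBS livers, and Plin2 at 104 ± 17.6 RPKM in rFGF21 and 98.7 ± 41.9 RPKM in PBS livers (SD, n = 4 each). Over all 8 libraries the order of mean RPKM was Cideb, Plin2, Plin3, Plin5, Fitm2, Fitm1, Cidec, Hilpda, Plin4 and Cidea. The order was plain between Plin2 and Plin3, between Fitm2 and Fitm1 and between Plin4 and Cidea, where the first was the higher in 8 of 8 libraries. Between Cideb and Plin2 it held in 3 of 8 libraries and between Cidec and Hilpda in 4, and these neighbours overlapped within their spread. Plin3 exceeded Plin5 in 4 of 4 rFGF21 libraries and in 1 of 4 PBS libraries, with means of 17.7 and 10.5 RPKM in rFGF21 and of 13.9 and 18.1 RPKM in PBS livers. Hilpda exceeded Plin4 in 4 of 4 rFGF21 and 2 of 4 PBS libraries. Plin5 exceeded Fitm2 in 2 of 4 rFGF21 and 4 of 4 PBS libraries, and Fitm1 exceeded Cidec in 7 of 8 libraries. Of the summed RPKM of the 4 perilipins, Plin2 made up 78.0 ± 2.2% in rFGF21 and 71.9 ± 6.2% in PBS livers. Plin5 made up 7.92 ± 0.83% in rFGF21 and 13.8 ± 1.8% in PBS livers, and Plin4 0.575 ± 0.183% in rFGF21 and 2.93 ± 1.89% in PBS livers (SD, n = 4 each). Plin3 made up 13.5 ± 1.8% in rFGF21 and 11.4 ± 4.1% in PBS livers (SD, n = 4 each), so Plin5 was below Plin3 in mean share in rFGF21 and above it in PBS livers.

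**Figure D3:**
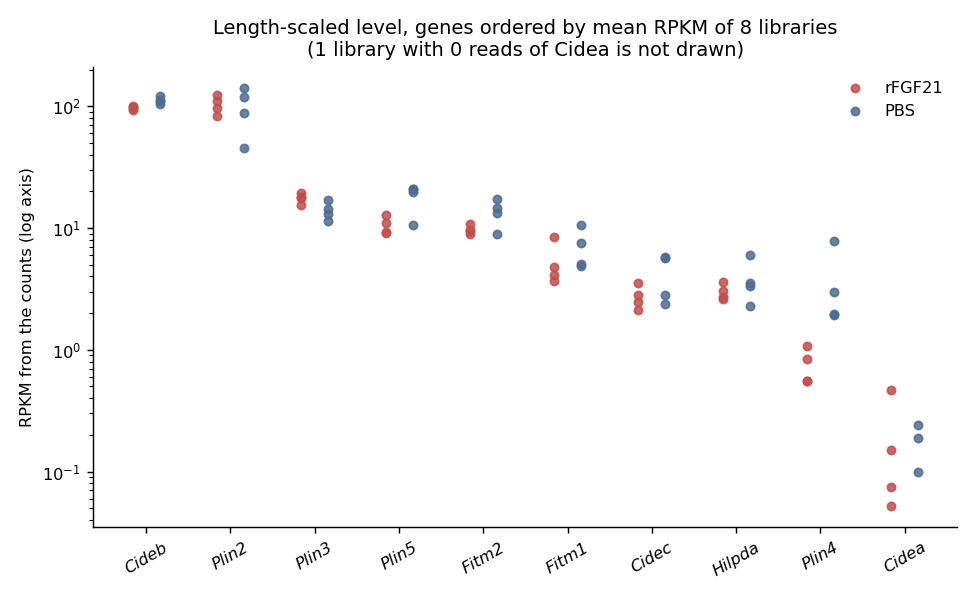
RPKM (log axis) of the 10 genes in rFGF21 (red) and PBS (blue) libraries, 1 point a library, ordered by the mean of all 8. Cideb and Plin2 lead at 104 and 101 RPKM on average, and Cidea closes at 0.159 RPKM, with 1 PBS library at 0 reads and not drawn.

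The tested genes most like Plin4, the gene of the 10 with the smallest p, were Lrit2, Neb, Ugt3a2, Cphx2 and Slc1a2, with Pearson's r of 0.966 to 0.979 for log2 CPM over the 8 libraries. With each group centred on its own mean, r was 0.876 to 0.937. These values describe 8 libraries that share a treatment contrast and are given with no test. Lrit2 and Slc1a2 were themselves called lower (log2 fold change -2.15 and -1.14, edgeR adjusted p = 0.0308 and 0.0205).

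Among 33 other tested genes of droplet proteins and droplet formation, 3 fell and none rose (9.09% called, against 2.82% of all genes tested), and 25 of the 33 had a negative log2 fold change, with a median of -0.13. G0s2, the inhibitor of adipose triglyceride lipase, fell to 8.86 ± 1.18 CPM in rFGF21, against 51.1 ± 25.3 CPM in PBS livers (SD, n = 4 each; log2 fold change -2.53 ± 0.34 SE, edgeR adjusted p = 0.00652). Mgll, which cleaves monoglycerides, fell to 46.4 ± 6.0 CPM in rFGF21, against 85.8 ± 8.3 CPM in PBS livers (-0.89 ± 0.11, edgeR adjusted p = 0.00552). Dgat2, which makes triglyceride for droplets and VLDL, fell to 369 ± 31.4 CPM in rFGF21, against 515 ± 51.5 CPM in PBS livers (edgeR adjusted p = 0.0446). G0s2 and Mgll kept their calls whichever library was left out, and Dgat2 kept its call in 1 of those 8 fits, without PBS library 4. Pnpla2, adipose triglyceride lipase itself, had a log2 fold change of -0.12 ± 0.09, Hsd17b13, a droplet enzyme of hepatocytes, one of -0.03 ± 0.10, and Abhd5, the activator of that lipase, one of 0.30 ± 0.10, none of them called (edgeR adjusted p = 0.509, 0.901 and 0.126). At an unadjusted p under 0.05, 11 were lower and 1 higher, against 9.86% lower and 8.92% higher over all genes. DESeq2 called 7 lower and none higher, against 4.97% of its genes as lower, and limma-voom 4 lower and none higher, against 1.58% as lower.

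Plin2, Plin4, Plin5 and Cidec are known targets of PPAR transcription factors, and Hilpda is one of HIF, so genes of both pathways were read. Of 27 tested PPAR regulators and PPAR-alpha targets none was called by edgeR, while 13 were lower and none higher at an unadjusted p under 0.05, against 9.86% lower over all genes, and their median log2 fold change was -0.38. DESeq2 called 4 of them lower and none higher, against 4.97% of its genes as lower, and limma-voom called none. Without PBS library 4 edgeR called 3 of them lower, and 288 lower over all genes. On all 8 libraries it called 306 lower over all genes, 1.67% of those tested. The share without PBS library 4 was not computed. Acot1, a cytosolic thioesterase, had a log2 fold change of -1.14 ± 0.35 (SE), and Cyp4a10, a fatty acid hydroxylase, one of -1.24 ± 0.46 (edgeR adjusted p = 0.116 and 0.180). Ppara itself had one of -0.06 ± 0.13 (edgeR adjusted p = 0.865). Of 21 tested HIF and hypoxia genes, Epas1, which encodes HIF-2alpha, rose to 117 ± 10.4 CPM in rFGF21, against 70.8 ± 7.3 CPM in PBS livers (SD, n = 4 each; log2 fold change 0.72 ± 0.10 SE, edgeR adjusted p = 0.00764), and none fell (none lower by DESeq2 or limma-voom). That is 4.76% of the list called, against 2.82% of all genes. DESeq2 called 2 of the list higher, against 688 of the 16514 genes it tested. At an unadjusted p under 0.05, 4 of the 21 were higher and 1 lower, against 8.92% and 9.86% of all genes, and the median log2 fold change was 0.02. Of 14 tested fasting, cAMP and insulin genes, Cited2, a coregulator induced by fasting hormones, rose (1.21 ± 0.19, edgeR adjusted p = 0.0103) and none fell (none lower by DESeq2 or limma-voom). That is 7.14% of the list called, against 2.82% of all genes. DESeq2 called 3 of this list higher, against the same 688 of 16514. At an unadjusted p under 0.05, 3 of the 14 were higher and 4 lower, against 8.92% and 9.86% of all genes. The median log2 fold change of the 14 was -0.16. G6pc, which releases glucose, had a log2 fold change of -2.23 ± 0.89 and was not called (edgeR adjusted p = 0.208).

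**Figure D4:**
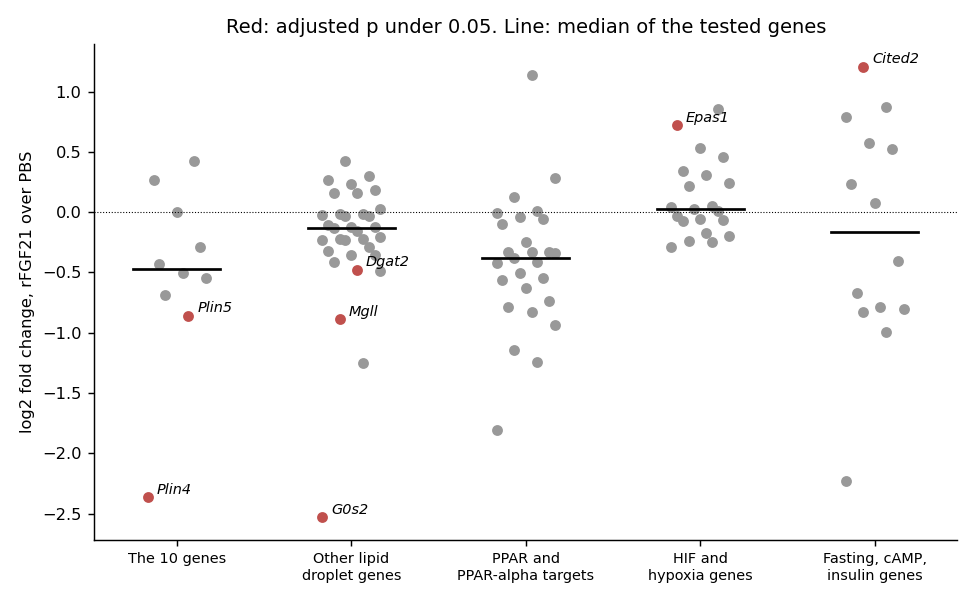
Log2 fold change of rFGF21 over PBS (vertical axis) for the 10 genes and the tested members of 4 lists, 1 point a gene, red and named where the edgeR adjusted p was under 0.05, with the median as a line. The medians are -0.47 for the 10 genes, -0.13 for other droplet genes, -0.38 for PPAR genes, 0.02 for HIF genes and -0.16 for fasting genes.

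**Figure D5:**
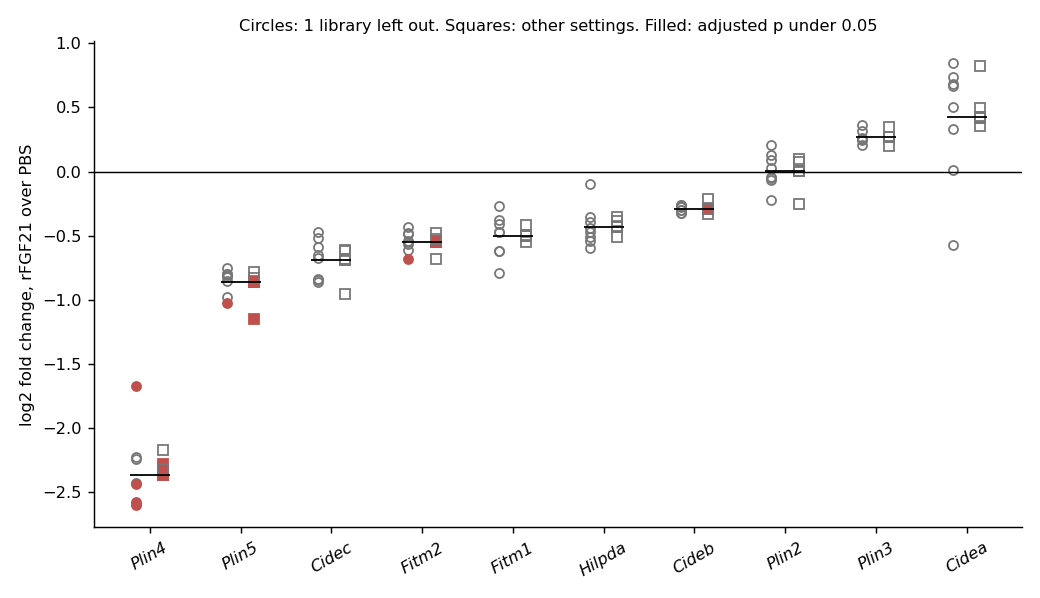
Log2 fold change of rFGF21 over PBS (vertical axis) of each gene under 16 other settings (15 for Cidea), with circles for fits that leave out 1 library, squares for other settings, filled where the adjusted p was under 0.05, and a line at the value reported. Plin4 and Plin5 stay below 0 throughout but carry open symbols beside filled ones, and Plin2 and Cidea lie on both sides of 0.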

How the data were processed

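Per the labels' protocols, libraries were made from total RNA with an Illumina TruSeq kit. The submitters' processing notes name Bowtie 0.12.2 and build mm8, while all 10 genes have the coordinates of GENCODE M21 (GRCm38), which are printed. The tool that counted reads, and its strand setting, stand in no source used here. The authors deposited whole-number read counts and FPKM values in 1 table. Its columns are numbered past the 4 samples of each group, so columns were assigned to groups only. Of 5 count columns a group, the 4 that also carry FPKM were used. The other 2 count columns and the FPKM columns, 10 in all, were not used, and RPKM were computed from the counts. Any 2 libraries differed far beyond sampling noise (chi-square per degree of freedom at least 47.1 over 28 pairs).

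Counts were fitted with edgeR 4.0.16 (R 4.3.3) over all genes passing filterByExpr (18315), with TMM scaling and the two-sided quasi-likelihood F test, rFGF21 over PBS, no covariates, and Benjamini-Hochberg adjustment over those genes, and called at an adjusted p under 0.05. SEs follow from the F statistic. The step was tested on simulated data. Single ratios were tested by exact permutation over all 70 splits. Alternatives used DESeq2 1.42.0, limma 3.58.1 (voom), other scalings and filters, and each library left out. The 10 genes, the lists and the tests were chosen with earlier results of these data known. The genes named are the 10, at most 4 called per list, others a result turns on, and the 5 most correlated with the gene of smallest p. Intervals cover counting and replicate error as modelled, at 62756328 to 73313449 reads per library.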

Additional observations from a re-analysis of the deposited data

Results flagged for a closer look

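Among 24 groups of 4 libraries examined (the 10 genes and 3 adipocyte markers, leaving out groups with 0 reads throughout), 4 had a library whose gap to its nearest neighbour, as a share of the group's range, passed Dixon's 95% limit, which chance passes in about 1 of 20 groups. rFGF21 library 2 was low for Plin3, at 59.1 CPM with the next at 66.1 CPM (a gap of 0.841 of the range). PBS library 2 was high for Plin1, at 1.07 CPM with the next at 0 (a gap of 1 of the range), and for Adipoq, at 0.881 CPM with the next at 0.0513 CPM (0.942). rFGF21 library 3 held the only Cfd reads of its group, at 0.0411 CPM (a gap of 1 of the range). Where all other libraries of a group hold 0 reads, as for Cfd here and for Plin1 in PBS, the gap is 1 whatever the level. The rate of about 1 of 20 does not apply to such groups, so their flags carry no weight.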

How the results depend on the processing

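The direction of 8 of the 10 genes was the same under all 16 alternatives listed for it. Plin2 changed sign without rFGF21 library 3 (-0.04) or 5 (-0.06) or PBS library 1 (-0.05) or 4 (-0.22), with the replicate block (-0.25) and with the same 6 libraries unblocked (-0.27), and Cidea without rFGF21 library 1 (-0.57). Plin4 kept its call in 10 of 16 and Plin5 in 6 of 16. Plin4 missed it with no filter on low counts (-2.36) and limma-voom (-2.17), and Plin5 with library size only (-0.78), no filter (-0.86) and limma-voom (-0.83). Cideb and Fitm2 were called by DESeq2 (-0.29 and -0.55). The cause was not tested. Alternatives on the deposited FPKM were not run, since those columns were not used.

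With 1 library left out, log2 fold changes ran from -2.60 to -1.67 for Plin4, -1.03 to -0.75 for Plin5, -0.68 to -0.43 for Fitm2, -0.22 to 0.21 for Plin2 and -0.57 to 0.84 for Cidea. Genes called lower among the 10 numbered 0 (without rFGF21 library 1, 2 or 5) to 3 (without PBS library 4). All genes called numbered 51 to 198 higher and 80 to 288 lower, fewest without rFGF21 library 1 and most without PBS library 4. PPAR genes called numbered 0 to 1 higher (1 without PBS library 5) and 0 to 3 lower, and fasting genes 1 to 2 higher (2 without PBS library 1) and 0 to 2 lower (2 without rFGF21 library 2).

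Of the 10, library size only called 1 lower, DESeq2 4, and no filter and limma-voom 0. Over all genes, with 210 higher and 306 lower in the fit reported, DESeq2 called 688 higher and 820 lower, no filter 85 and 113, and library size only 178 lower. DESeq2 called 7 other droplet genes and 4 PPAR genes lower, against 820 of the 16514 genes it tested (4.97%). It called 2 of the 21 HIF genes and 3 of the 14 fasting genes higher, against 688 of those 16514.

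Column numbers 1, 2 and 5 occur in both groups, with deviations from the group means correlated at 0.117, -0.115 and -0.181. By this measure rFGF21 library 1 was most like the PBS library of its own number, and rFGF21 libraries 2 and 5 were not. The labels do not say whether the numbers pair the libraries, and so few correlations cannot decide it. With that replicate block on these 6 libraries, 7 genes were called higher and 5 lower, 1 of the 10 (Plin5), 1 other droplet gene and 0 HIF or fasting genes, and Plin4 had -2.32 without a call. The same 6 libraries without the block, added after seeing the data, gave 116 higher and 165 lower, Plin4 at -2.67 uncalled, Fitm2 at -0.68 called and 1 PPAR gene lower.

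For genes above about 3 CPM a library held over 150 reads of each, and whether depth limited their calls was not tested. For Cidea, with at most 38 reads, the 95% interval of the log2 fold change ran from -1.69 to 2.53.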
